A study of Mus musculus with 8 samples.

Results

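The 10 genes described here belong to the ETS transcription factor family and were followed in mouse embryonic stem cells that lose RAS: Elf3 and Ehf, Ets1 and Ets2, Elk1 and Elk4, Elf1, Elf2 and Elf4, and Gabpa. The genes were fixed by name, with earlier results of these data known. Every probe whose RefSeq accession belongs to one of them was taken from the scanner output of all 8 arrays. This gave 19 probes for 10 genes, out of 55681 probes and 21154 named genes on the array. The tests took in 32420 probes, those that both arrays of some group showed well above background, and among them were 16 of the 19 member probes, of 9 genes. Elf4 had no tested probe.

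The cells of all groups carried the alleles H-Ras-/-, N-Ras-/- and RERTert/ert, and 4-hydroxytamoxifen (OHT), which activates the Cre fused to an oestrogen receptor, removes the RAS that remains. The 4 groups of 2 one-colour arrays were: ERF knockout (as labelled) with OHT for at least 2 days, labelled ERF knockout untreated, ERF wild type with OHT, and ERF wild type untreated. ERF is itself an ETS family repressor, exported from the nucleus once ERK phosphorylates it, and the comparisons ask how far the response to RAS loss needs it. No group received OHT and kept RAS, so OHT itself and the loss of RAS cannot be told apart. Every sample mixed 2 clones. The source names give 4 cell pools, A2 and B2 of the labelled knockout and A1 and B1 of the wild type, each sampled with and without OHT. The 2 replicates of a group are its 2 pools, and the labels name no further repeat cultures. Where groups are fitted by their means, a difference in level between the pools adds to the error behind each p-value. Where pools are taken as blocks, that difference in level is removed. The p-values for OHT then rest on how far the change with OHT varies between the pools of a genotype. The cells grew on gelatin with 15% serum and LIF, and the stated protocol names no feeder layer.

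The share of spots well above background was 54.0% to 63.6% per array, and no spot was saturated. Both arrays of pool B1 were on slide 2, and the other 6 arrays on slide 1. Up to 3.01% of the spots of an array lay in dark patches, areas where a spot's neighbours were lower than on the other arrays, and 2 member spots did, both on the OHT array of pool A2. Levels are given as the log2 of the processed signal minus the array's 75th percentile, so 0 is the 75th percentile. Such a level holds for 1 probe across arrays and cannot be set against that of another probe. Of 8 markers of ES cells, 7 had a probe with a value on all arrays, and these were well above background on all 8. The Erf probe did not settle the knockout label: it gave 3.73 and 5.13 in the OHT arrays and 3.26 and 5.43 in the untreated arrays of the labelled knockout (pools A2 and B2), against 4.79 and 4.73 in the OHT arrays and 4.91 and 5.22 in the untreated arrays of the wild type. Whether that probe falls inside the deleted stretch is not known here.

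ETS factors share a winged helix-turn-helix DNA-binding domain that recognises a GGAA core, and the bases around the core and partner proteins set which member binds where. Several are direct substrates of ERK: phosphorylation of ETS1 and ETS2 raises their activity, phosphorylation of ELK1 and ELK4 lets them drive immediate early genes together with SRF, and phosphorylation of ERF ends its repression. ELF3 and EHF belong to the epithelium-specific branch of the family, ELF1, ELF2 and ELF4 to a branch studied mostly in blood cells, and GABPA, with its partner GABPB, to a branch known for housekeeping and mitochondrial promoters.

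The promoters of members that rose together in wild type cells in 1 of the fits below are shown here so that the core these factors recognise can be seen in them. RefSeq's table of promoter windows, from 250 bases before to 50 after a transcript start on assembly GRCm38.p6, held 13 windows for 8 of the 10 members (Ets1 and Ehf had no entry). Each GGAA core is in capitals, as GGAA on the strand of the gene or TTCC where it lies on the other strand. Elf3, chr1:135258423-135258722, minus strand, held 4 cores, Ets2, chr16:95702157-95702456, plus strand, held 1, and the first window of Elf1, chr14:79480944-79481243, plus strand, held 2.
Elf3: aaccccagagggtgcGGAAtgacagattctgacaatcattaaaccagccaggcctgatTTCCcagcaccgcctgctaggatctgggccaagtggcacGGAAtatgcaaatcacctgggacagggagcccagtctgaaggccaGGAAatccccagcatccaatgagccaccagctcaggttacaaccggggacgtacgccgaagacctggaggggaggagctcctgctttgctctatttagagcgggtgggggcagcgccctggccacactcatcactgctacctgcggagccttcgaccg
Ets2: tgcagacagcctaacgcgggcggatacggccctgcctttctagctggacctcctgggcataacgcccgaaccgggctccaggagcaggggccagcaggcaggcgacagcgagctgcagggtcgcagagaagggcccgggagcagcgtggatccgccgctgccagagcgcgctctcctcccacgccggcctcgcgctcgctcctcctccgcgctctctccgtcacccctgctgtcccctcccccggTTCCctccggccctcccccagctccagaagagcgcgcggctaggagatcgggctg
Elf1: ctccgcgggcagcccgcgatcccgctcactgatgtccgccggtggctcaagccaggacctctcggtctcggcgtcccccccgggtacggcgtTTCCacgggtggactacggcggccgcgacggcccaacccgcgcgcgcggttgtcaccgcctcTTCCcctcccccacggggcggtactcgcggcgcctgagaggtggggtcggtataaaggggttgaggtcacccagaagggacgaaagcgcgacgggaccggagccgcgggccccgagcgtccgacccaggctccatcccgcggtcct
A GGAA core on either strand was present in 96.0% of 32851 promoters of the same length, with a median of 3 matches. The longer form CCGGAA, on either strand and containing the core, was present in 14.9% of them, and CCGGAAGT, which contains both, in 3.89%. Among the members, CCGGAA stood in the windows of 2 genes, Elk4 and Gabpa, and in none of the 3 windows printed. These matches describe the windows and do not show binding.

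Elf3, an activator of epithelial genes, was higher with OHT in both wild type pools. In the labelled knockout its level was -0.96 and -0.55 with OHT (pools A2 and B2), against -1.25 and -0.97 untreated. In the wild type it was 0.88 and 0.57 with OHT (pools A1 and B1), against -0.84 and -1.09 untreated. The wild type OHT arrays thus stood above all other 6 arrays, while the other 3 groups lay between -1.25 and -0.55, with the labelled knockout's groups overlapping those of the untreated wild type. The share of all probes with such an ordering of arrays is not given, here and for every gene below. An ordering is thus a description only.

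Within a pool, Elf3 changed with OHT by 0.29 in A2 and 0.42 in B2, against 1.71 in A1 and 1.66 in B1. On group means the difference between OHT and untreated arrays was 0.36 ± 0.25 (SE) in the labelled knockout and 1.69 ± 0.25 in the wild type. After Benjamini-Hochberg adjustment over all 32420 probes, limma gave Elf3 an adjusted p of 0.352 in the wild type, where no probe of the array passed 0.05, so Elf3 was not called. It had the 49th smallest p and the 434th largest change of 32420 there. As the genes were chosen with earlier results of these data known, such ranks are descriptions and no support. With the pools as blocks, which takes up the spread between pools, the adjusted p was 0.155. With pools as blocks, dark patches left out and a trended, robust variance together (called the combined pool fit from here on), Elf3 rose in the wild type by 1.69 ± 0.12 with adjusted p = 0.00031, and the labelled knockout's change of 0.36 ± 0.12 had adjusted p = 0.12. Over all alternatives that used every array or slide 1 alone, the change in the wild type ran from 1.40 to 1.71 and its adjusted p from 0.00031 to 1.00. In the combined pool fit without 1 pool, the adjusted p for the wild type ran from 9.2e-05 to 0.0186. Without A1 or without B1 the effect in the wild type rests on 1 pair of arrays, the residual spread comes from the pools of the labelled knockout, and the lone pair is assumed to vary like them, here and for every gene below.

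The difference between the OHT effects of the genotypes, labelled knockout minus wild type, was -1.33 ± 0.35 for Elf3 on group means, and limma called neither it nor any other probe (adjusted p = 1.00). In the combined pool fit the difference was -1.33 ± 0.17 with adjusted p = 0.134, and leaving out pool B2 gave -1.39 with adjusted p = 0.0331, where the labelled knockout's effect is the 1 pair of A2 and the residual spread that of the wild type pools alone. Without pool A2 the adjusted p was 0.0667, without pool A1 0.497 and without pool B1 0.161. Compared directly, the labelled knockout minus wild type difference in Elf3 was -1.48 ± 0.25 with OHT (limma adjusted p = 1.00) and -0.15 ± 0.25 without OHT, and neither comparison of genotypes called it. Elf3 had the 26th smallest p and the 1263rd largest difference of 32420 with OHT, again as a description only.

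**Figure D1:**
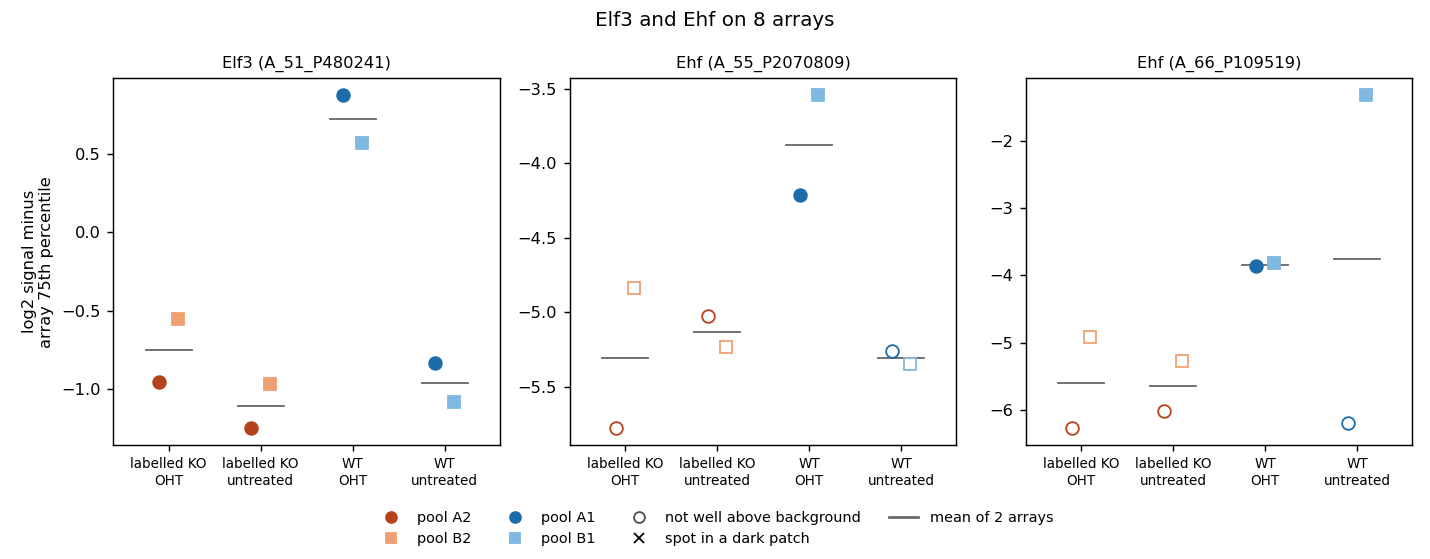
Levels of Elf3 and of both Ehf probes on 8 arrays, as log2 signal minus the array's 75th percentile, by group and cell pool; bars are means of 2 arrays and open symbols are spots not well above background. For Elf3 the wild type OHT arrays, at 0.88 and 0.57, stand above the other 6, which lie between -1.25 and -0.55.

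Ehf, a relative of Elf3 in the epithelium-specific branch, was dim throughout, and its probes were well above background on 2 and 3 of the 8 arrays. Probe A_55_P2070809 gave -5.78 and -4.83 with OHT, against -5.03 and -5.23 untreated in the labelled knockout, none well above background. In the wild type it gave -4.21 and -3.54 with OHT, both well above background, against -5.26 and -5.35 untreated, neither well above background. The wild type OHT arrays were again the 2 highest of the 8.

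Because Ehf was not above background in the dim groups, its fold is a bound: the mean of the bright group against, on each dim array, the dimmest probe well above background or the Ehf probe itself, whichever was higher. By this measure A_55_P2070809 was at least 1.51-fold higher with OHT than untreated in the wild type, where the measured difference was 1.42 ± 0.38 on the log2 scale (limma adjusted p = 0.754; 0.227 in the combined pool fit). With OHT it was at least 1.82-fold lower in the labelled knockout than in the wild type (adjusted p = 1.00). Both bounds hold for the main values only. Over the alternatives without a left-out array, the log2 difference between genotypes with OHT ran from -1.51 to -0.27. The direction in the wild type depended on the background correction, since normexp gave -0.08 where the other settings gave 1.04 to 1.79.

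The second Ehf probe, A_66_P109519, did not follow the first. It gave -6.27 and -4.91 with OHT, against -6.02 and -5.26 untreated in the labelled knockout, none well above background, and -3.86 and -3.82 with OHT, against -6.19 and -1.32 untreated in the wild type. The array of untreated pool B1 was thus the brightest of all for this probe while the other untreated wild type array was below background. With OHT the probe was at least 1.87-fold lower in the labelled knockout than in the wild type on the main values, and neither Ehf probe was called there. Over the alternatives without a left-out array its log2 difference ran from -1.80 to -0.31. Both probes entered the tests only through the wild type OHT arrays, the only group with both arrays well above background. Detection in that group was thus a condition of entry and no separate support.

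Genes that ELF3 and EHF are studied with in epithelia held calls in both directions with OHT. Of 16 such genes, all tested, the combined pool fit called 3 higher and 2 lower with OHT in the labelled knockout, and 4 higher and 3 lower in the wild type. Over all probes that fit called 3.45% higher and 2.07% lower in the labelled knockout, and 4.24% higher and 5.76% lower in the wild type. A gene counted as called if any of its probes was. Counts of genes and shares of probes are thus unlike units, here and for the gene lists below. Cldn4, a tight junction claudin, rose by 0.90 and 0.99 on its 2 probes in the labelled knockout and by 0.91 and 0.88 in the wild type, and Krt8 and Krt18, the simple epithelial keratins, changed by 0.57 and 0.33 in the labelled knockout (adjusted p = 0.0855 and 0.13) and rose by 0.87 and 0.69 in the wild type. Grhl2, a regulator of epithelial junction genes, changed by -1.21 and -1.35 on its 2 probes in the labelled knockout (adjusted p = 0.0384 and 0.0544) and by -1.56 and -2.02 in the wild type. Esrp1, an epithelial splicing regulator, changed by -0.72 and -0.65 in the labelled knockout (adjusted p = 0.055 and 0.0152) and by -1.11 and -0.98 in the wild type. Over the 21 tested probes of these genes the median change was 0.15 in the labelled knockout and -0.28 in the wild type, against medians of 0.09 and -0.06 over all probes.

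Markers of trophoblast did not share 1 pattern. Of 8 listed, 7 were well above background on all 8 arrays and Elf5, another ETS member that defines trophoblast stem cells, on none. Their summed signal, as log2, was 3.73 to 4.10 with OHT, against 3.37 to 3.78 untreated in the labelled knockout, and 4.45 to 4.65 with OHT, against 3.21 to 3.31 untreated in the wild type. Such a sum weights bright probes, and most of this one was Tfap2c, at 4.38 and 4.26 on the wild type OHT arrays. Tfap2c and Gata2 were highest on the wild type OHT arrays, whereas Cdx2, Hand1, Krt7, Gata3 and Eomes each had its highest array in pool A2 of the labelled knockout. By the combined pool fit, Gata2 rose by 2.55, Tfap2c by 1.43 and Gata3 by 1.22 in the wild type, while Cdx2 fell by 1.31. In the labelled knockout Gata3 rose by 0.79 and Hand1 fell by 0.81. In a bulk sample, more cells of a type and more RNA per cell cannot be told apart, and the part of such cells in the Elf3 result was not tested.

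By likeness of level over the 8 arrays, among 6480 probes well above background everywhere and spanning at least 1 on the log2 scale, the genes nearest to Elf3 were Alg13 (Pearson r = 0.962), Pdlim4 (0.961), Aspa (0.957), Col9a2 (0.957) and Tfap2c (0.957). Tfap2c, which encodes the transcription factor AP-2 gamma, is also 1 of the trophoblast markers above. The most opposite were Noct (-0.981), Trib1 (-0.967) and Lrrc4 (-0.963). These values are descriptions over 8 arrays, which come from 4 pools sampled under both conditions.

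Ets2, an ERK-responsive activator needed in trophoblast, also had its highest arrays in the wild type with OHT. Its level was 1.64 and 1.65 with OHT, against 1.53 and 1.46 untreated in the labelled knockout. In the wild type it was 1.78 and 1.99 with OHT, against 1.10 and 1.37 untreated. The wild type OHT arrays were the 2 highest and the untreated wild type arrays the 2 lowest, and the labelled knockout lay between them without overlap with either. The change on group means was 0.15 ± 0.20 in the labelled knockout and 0.65 ± 0.20 in the wild type (limma adjusted p = 0.804). Ets2 rose in the wild type in the combined pool fit by 0.65 ± 0.09 with adjusted p = 0.00465, but without pool A1 or without pool B1 the adjusted p was 0.107 or 0.0807. Over the alternatives without a left-out array the adjusted p ran from 0.00465 to 1.00. The difference of the effects for Ets2 was -0.50 ± 0.13 in that fit (adjusted p = 0.32).

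Ets1, the relative of Ets2 that is best known from lymphoid, endothelial and mesenchymal cells, was set apart in the labelled knockout by cell pool more than by treatment. Probe A_52_P194250 gave 0.01 and -3.06 with OHT, against -0.38 and -3.53 untreated in the labelled knockout (pools A2 and B2 each time). In the wild type it gave -2.06 and -2.59 with OHT, against -2.93 and -3.76 untreated (pools A1 and B1). Both arrays of pool A2 were above all other 6 arrays, and the replicates of the labelled knockout were further apart than the groups.

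The second Ets1 probe, A_52_P232830, followed the first over the 8 arrays (r = 0.979). It gave 0.50 and -1.95 with OHT, against 0.11 and -2.30 untreated in the labelled knockout, and -1.33 and -1.40 with OHT, against -1.59 and -1.91 untreated in the wild type. The spot at 0.50 lay in a dark patch, and pool A2 was again the highest on both its arrays.

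Pool A2 against pool B2 of the labelled knockout, fitted with OHT as a second term, gave Ets1 differences of 3.11 ± 0.12 (limma adjusted p = 0.0214) and 2.43 ± 0.11 (adjusted p = 0.0241) on its 2 probes. The 2 arrays of a pool served as its repeats here, so these p-values measure the spread within pools. In this comparison 4 of the 16 member probes were called, against 14.7% of all probes. All 4 were higher in A2, against 6.61% of all probes called higher and 8.07% called lower, and 7 had an unadjusted p under 0.05, against 36.2% of all. Without the spots in dark patches and with a trended, robust variance 6 member probes were called, against 35.7% of all. At an unadjusted p under 0.05 there were 8, against 44.6% of all, and 5 of them were higher and 3 lower in A2. The 6 calls were thus not all towards higher levels. Member probes lower in A2 whose smallest limma adjusted p over the alternatives was under 0.05 were Elk1 A_66_P103818 (0.0301) and Gabpa A_51_P364984 (0.0471). The second Ets1 probe's difference was 2.41 in that fit. With no filter on dim probes the adjusted p of the Ets1 probes was 0.0653 and 0.0837.

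With OHT, Ets1 was higher within every pool on both probes. On A_52_P194250 the change was 0.38 in A2 and 0.47 in B2, against 0.87 in A1 and 1.17 in B1. On A_52_P232830 it was 0.39 in A2 and 0.35 in B2, against 0.25 in A1 and 0.51 in B1. The combined pool fit called A_52_P194250 higher in the wild type, by 1.02 ± 0.18 with adjusted p = 0.012, a call lost without pool A1 (adjusted p = 0.0989) or without pool B1 (0.168), and the second probe's 0.38 ± 0.16 had adjusted p = 0.183. Normexp brought the change on A_52_P194250 to 0.16 and that on A_52_P232830 to 0.17. On group means, where the spread between pools enters the error, limma's SE was 1.33 and 1.02 and the adjusted p 1.00 for both.

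**Figure D2:**
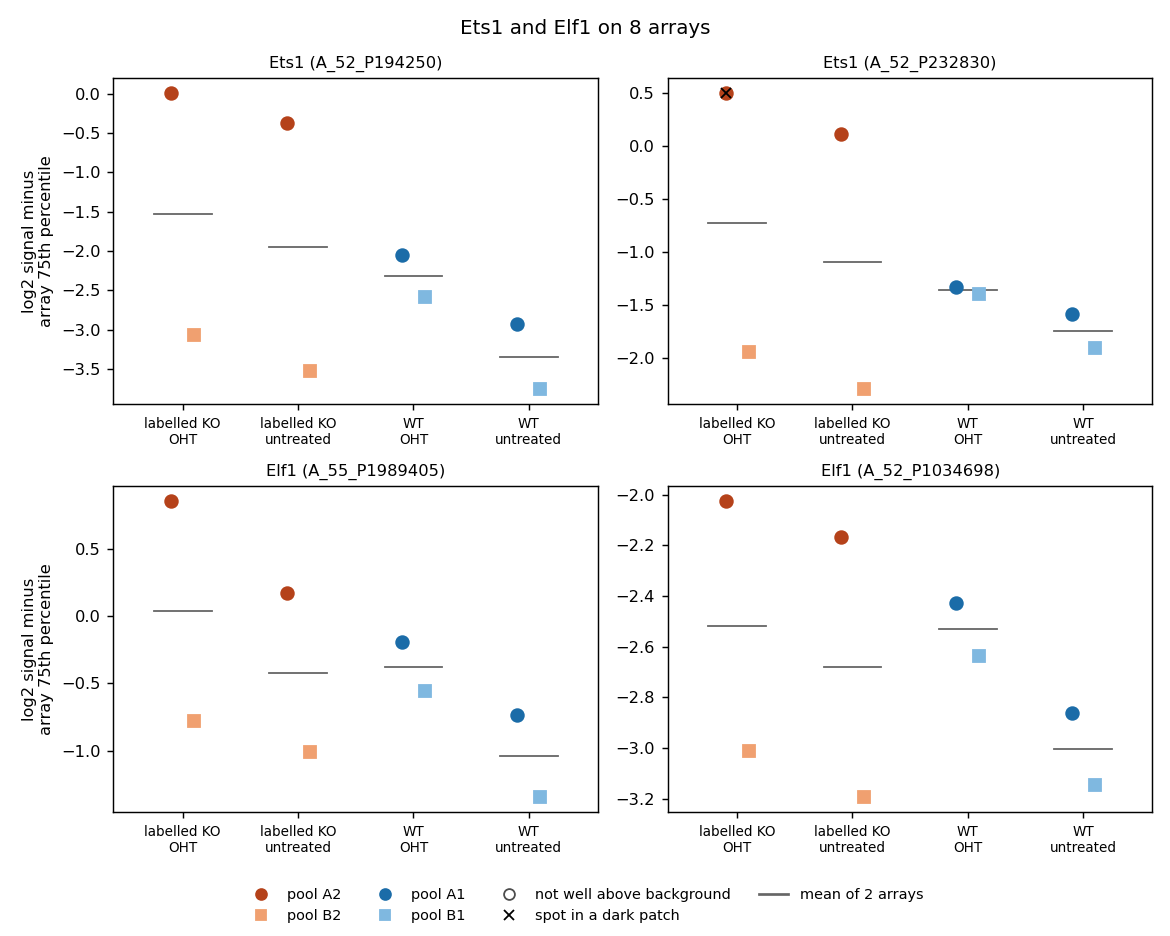
Levels of both Ets1 and both Elf1 probes on 8 arrays, as log2 signal minus the array's 75th percentile, by group and cell pool; bars are means of 2 arrays and a cross marks a spot in a dark patch. Pool A2 stands above the other 3 pools on all 4 probes, and pool B2 lies within or below the range of the wild type pools.

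Elf1, an activator with roles in lymphoid and endothelial cells, showed the same pattern of pools. Probe A_55_P1989405 gave 0.85 and -0.78 with OHT, against 0.17 and -1.01 untreated in the labelled knockout, and -0.19 and -0.56 with OHT, against -0.73 and -1.35 untreated in the wild type. Probe A_52_P1034698 gave -2.03 and -3.01 with OHT, against -2.17 and -3.19 untreated in the labelled knockout, and -2.43 and -2.63 with OHT, against -2.86 and -3.15 untreated in the wild type. Both arrays of pool A2 were the highest of the 8 on either probe, and the probes correlated at r = 0.959.

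Between pools A2 and B2, Elf1 differed by 1.41 ± 0.16 (limma adjusted p = 0.0341) and 1.00 ± 0.09 (adjusted p = 0.0285). With OHT, A_55_P1989405 was higher in every pool, by 0.68 in A2 and 0.23 in B2, against 0.54 in A1 and 0.79 in B1. It rose in the wild type in the combined pool fit by 0.67 ± 0.15 with adjusted p = 0.0275, a call lost without pool A1 (adjusted p = 0.156) or without pool B1 (0.312). In the labelled knockout its change of 0.46 ± 0.15 had adjusted p = 0.111. The second probe's change in the wild type was 0.47 ± 0.20 with adjusted p = 0.19, and normexp brought it to 0.00.

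Elf2, a broadly expressed member of the Elf1 branch, varied less. It gave 1.75 and 1.09 with OHT, against 1.44 and 1.18 untreated in the labelled knockout, and 1.24 and 1.23 with OHT, against 1.11 and 1.11 untreated in the wild type. Pool A2 was again the highest on both its arrays. The difference of 0.46 ± 0.14 between A2 and B2 had adjusted p = 0.117, or 0.0163 without dark patches and with a trended, robust variance. No OHT effect on Elf2 was called, and within a pool its change ran from -0.09 in B2 to 0.31 in A2.

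Over the 8 arrays the levels of Ets1 and Elf1 correlated at r = 0.933, of Elf2 and Elf1 at 0.926 and of Elf2 and Ets1 at 0.923, with pool A2 the highest in all. The genes most like Ets1 were Lgals1 (r = 0.994), Snx16 (0.993), Rock2 (0.991), Rasl11b (0.990) and Clcn5 (0.990), and those most like Elf1 were Cdon (0.993), Smad3 (0.989), Rnd3 (0.987), Fry (0.987) and Tead1 (0.986). The most opposite to Ets1 were Ttc29 (-0.989), Mcat (-0.988) and Rfc3 (-0.988). The most opposite to Elf1 were Rnps1 (-0.991), Eras (-0.990), an ES cell RAS-like GTPase, and Rpa2 (-0.990).

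Markers of other cell types differed between the same pools, and their part in the Ets1 and Elf1 differences was not tested. Of all probes, limma called 6.61% higher and 8.07% lower in A2 than in B2. Without dark patches and with a trended, robust variance the shares were 14.3% and 21.4%. Between A2 and B2, 3 trophoblast markers were called higher (Hand1 by 2.85, Krt7 by 3.07, Gata3 by 2.10) and none lower, 1 fibroblast marker was called higher (Dcn by 1.85), and 4 ES cell markers were called lower (Zfp42 by -2.13, Esrrb by -1.97, Pou5f1 by -1.48, Nanog by -1.46). Zfp42 had no value on the OHT array of pool A2, so its difference rests on the untreated arrays. Of the 16 epithelial genes 6 were called higher, among them Krt8 by 3.94 and Krt18 by 3.82, and 1 lower (Tjp3 by -1.20). Erf was lower in A2 by -1.78. The summed fibroblast markers, of which 5 of 7 were well above background on all arrays and Lum on none, ran from 4.75 to 5.13 with OHT, against 4.57 to 4.93 untreated in the labelled knockout, and from 4.34 to 5.21 with OHT, against 4.24 to 5.05 untreated in the wild type. Col1a1 in this sum stood at -2.45 on the OHT array of pool A2, against 2.53 to 3.59 on the rest. That low value lowers the sum of the array, so the ranges of the groups cannot be compared closely. Of 7 markers of primitive endoderm 6 were well above background on all arrays, and 1 was called lower in A2 (Amn by -0.77). Dab2, the marker not detected on all arrays, stood at -7.15 on the OHT array of pool A2, against -2.14 to -1.11 on the rest. Of 5 blood markers 1 was well above background on all arrays, and Hbb-b1 was on none.

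Pool A1 against pool B1 of the wild type coincided with slide 1 against slide 2, so pool and slide cannot be told apart there. None of the 16 member probes was called by limma, against 0.74% of all probes (0.623% higher and 0.117% lower in A1), and 4 had an unadjusted p under 0.05, against 29.6% of all probes. Ets1 was 0.68 ± 0.12 higher in A1 on A_52_P194250 (adjusted p = 0.082), and Elk4 0.56 ± 0.09 higher on A_55_P1977096 (adjusted p = 0.0757). Without dark patches and with a trended, robust variance 5 member probes were called, against 26.1% of all probes (38% at an unadjusted p under 0.05).

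Elf4, an X-linked relative of Elf1 known from natural killer and T cells, was at the limit of detection. Probe A_51_P448856 was well above background on 1 array, untreated pool A2, at -1.03, and lay between -7.12 and -4.81 on the other 7. Probe A_55_P2035282 was well above background on the OHT array of pool B2 alone, at -4.26. The probes thus named different arrays, and no group had Elf4 well above background on both its arrays.

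Elk1 and Elk4, the ternary complex factors that bind next to SRF, had no probe called by limma in any comparison of groups. Elk1 probe A_55_P1954986 stood between 8.45 and 8.87 on all 8 arrays, and its mean was 8.76 ± 0.02 with OHT and 8.79 ± 0.11 untreated in the labelled knockout, and 8.49 ± 0.05 with OHT and 8.59 ± 0.20 untreated in the wild type (SD, n = 2 each). The OHT effect on it was -0.03 ± 0.20 and -0.10 ± 0.20 (SE). The other Elk1 probe, A_66_P103818, was between -3.22 and -2.20, was higher with OHT in every pool by 0.23 to 0.53 (by -0.06 in the wild type with normexp), and did not follow the other (r = -0.378). Both Elk1 probes carry the same accession, so which of them better reads the transcript is not settled here.

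Elk4 had 3 tested probes. On A_55_P1977096 it gave -0.95 and -1.06 with OHT, against -1.23 and -1.33 untreated in the labelled knockout, and -1.27 and -1.78 with OHT, against -1.24 and -1.84 untreated in the wild type. The OHT arrays of the labelled knockout were the 2 highest of the 8. Its OHT effect was 0.27 ± 0.29 in the labelled knockout and 0.02 ± 0.29 in the wild type. With OHT, Elk4 was higher in the labelled knockout than in the wild type by 0.52 ± 0.29 on this probe and by 0.63 ± 0.25 on A_55_P1977093, and limma called neither (adjusted p = 1.00). The third probe, A_55_P2021291, was near background and varied from -4.85 to -2.87.

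Immediate early genes, which ELK1, ELK4 and SRF control, are listed beside them. Of 9 such genes 8 were tested, and in the combined pool fit 2 fell in the labelled knockout (Egr1 by -1.90 and Ier2 by -0.57) and 2 fell in the wild type (Egr1 by -2.37 and Mcl1 by -0.49 and -0.47 on its 2 probes), while none rose. Their median change was -0.13 in the labelled knockout and -0.46 in the wild type, against 0.09 and -0.06 over all probes. The combined pool fit called 2.07% of all probes lower and 3.45% higher in the labelled knockout. In the wild type it called 5.76% lower and 4.24% higher. No partner gene (Srf, Gabpb1 and Gabpb2) was called in either genotype.

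Gabpa, the DNA-binding subunit of GABP, had 2 probes well above background on all arrays, which did not follow each other (r = -0.118). Probe A_52_P152283 gave 1.35 and 1.48 with OHT, against 1.19 and 1.33 untreated in the labelled knockout, and 1.41 and 1.06 with OHT, against 1.71 and 1.06 untreated in the wild type. The other, A_51_P364984, gave -2.16 and 1.49 with OHT, against 1.20 and 1.62 untreated in the labelled knockout, and 1.52 and 1.85 with OHT, against 1.37 and 1.72 untreated in the wild type. The value of -2.16 came from a spot inside a dark patch of the pool A2 OHT array and stood far below the other 7, which lay between 1.20 and 1.85.

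With that spot the Gabpa change on A_51_P364984 in the labelled knockout was -1.75 ± 1.09, and without the spot it was -0.13 ± 0.14 in the combined pool fit (adjusted p = 0.609). On A_52_P152283 the change was 0.15 ± 0.28 in the labelled knockout and -0.15 ± 0.28 in the wild type on group means, not called. Leaving out the OHT array of pool B2, so that the dark spot stood alone for its group, called A_51_P364984 at a change of -3.57 (adjusted p = 0.00516). Of 10 mitochondrial genes GABPA is studied with, 9 were tested, and in the combined pool fit none was called in the labelled knockout and Tfam, the mitochondrial transcription factor, fell by 0.36 on 1 probe in the wild type. That fit called 5.52% of all probes in the labelled knockout and 9.99% in the wild type, in either direction.

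**Figure D3:**
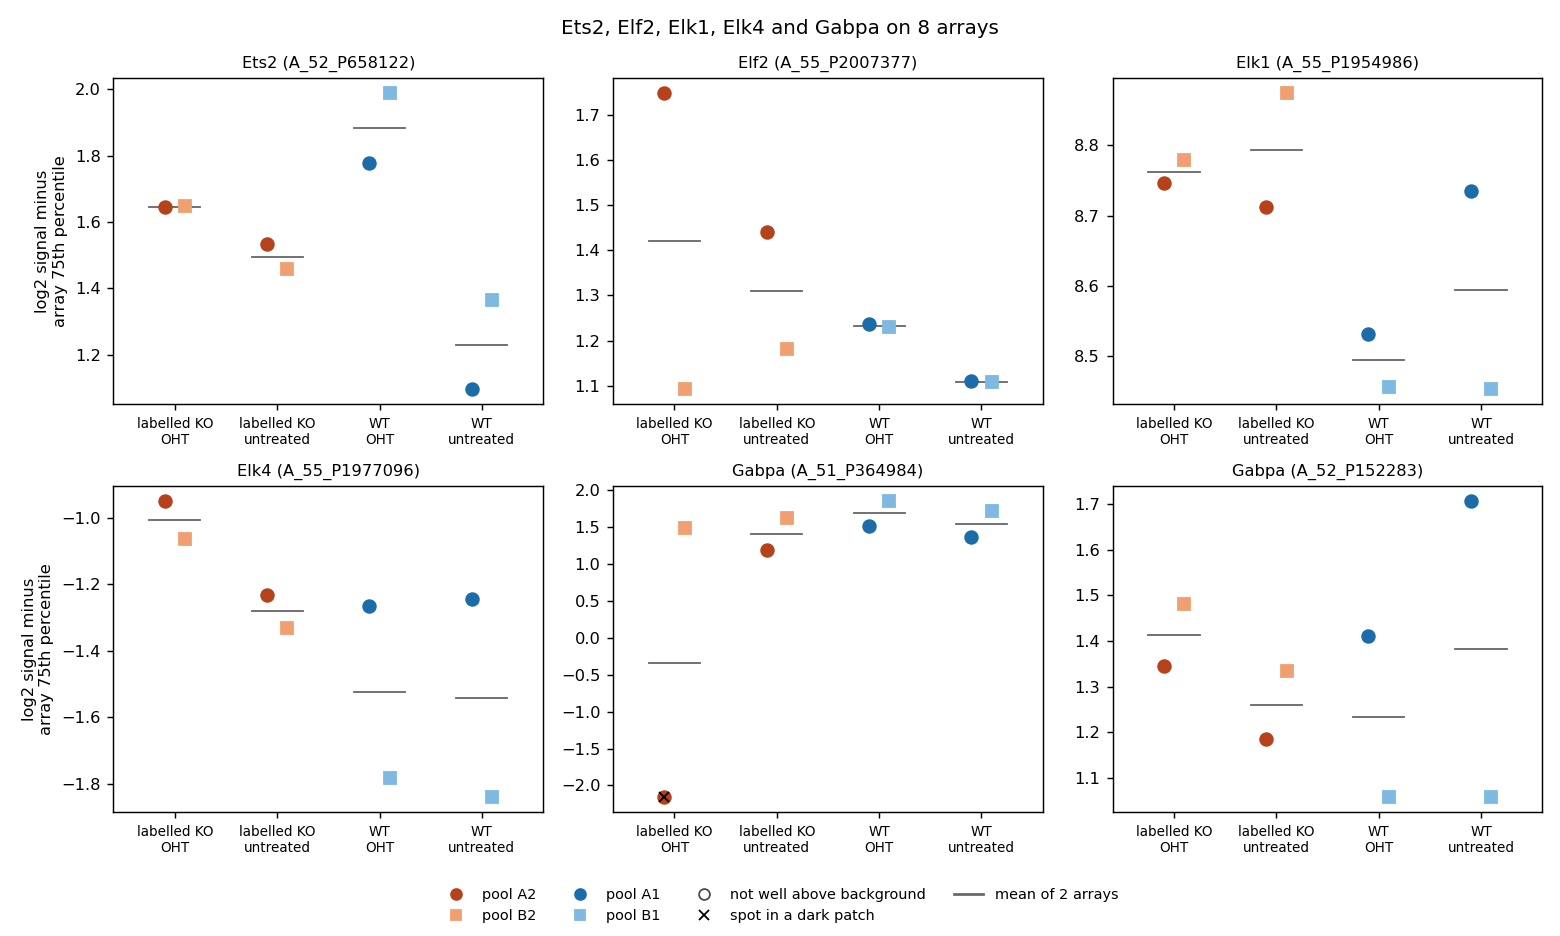
Levels of Ets2, Elf2, 1 probe each of Elk1 and Elk4 (A_55_P1954986 and A_55_P1977096), and both Gabpa probes on 8 arrays, as log2 signal minus the array's 75th percentile, each on its own axis. Ets2 separates the wild type OHT arrays, at 1.78 and 1.99, from the untreated ones, at 1.10 and 1.37, and 1 Gabpa probe is at -2.16 at the dark spot (cross).

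RefSeq places other genes over part of some members: Mfsd4a over Elk4, Wbp4 and 2 more over Elf1, 4930577N17Rik over Elf2 and Atp5j over Gabpa. The files give no probe positions in the build of that table, so whether a probe lies in such a stretch was not examined.

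Across the members, differences between OHT and untreated arrays were mostly above 0, and limma called none of them on group means in either genotype. In the labelled knockout 0 of 16 member probes passed, with 0% of all probes passing, and 0 had an unadjusted p under 0.05, against 4.32% of all. In the wild type 0 of 16 passed, with 0% of all, and 3 (Elf3, Ets2 and Ehf A_55_P2070809) had an unadjusted p under 0.05, against 5.2% of all. Ehf was tested only because the wild type OHT arrays showed it well above background. The change was above 0 for 13 of 16 probes in the labelled knockout and 12 in the wild type. Their medians were 0.22 and 0.27, against 0.07 and -0.06 over all probes. The count in the wild type depended on scaling: 14 with quantile normalization and 9 with normexp.

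In the combined pool fit, none of the 16 member probes was called in the labelled knockout, against 5.52% of all probes, with 3 at an unadjusted p under 0.05, against 23.7% of all. In the wild type 4 were called, against 9.99% of all, all of them higher, against 4.24% of all called higher: Elf3, Ets2, Ets1 A_52_P194250 and Elf1 A_55_P1989405. At an unadjusted p under 0.05 there were 6, against 25% of all. The plain fit with pools as blocks called none of the 16 in either genotype, with 0% of all probes called.

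**Figure D4:**
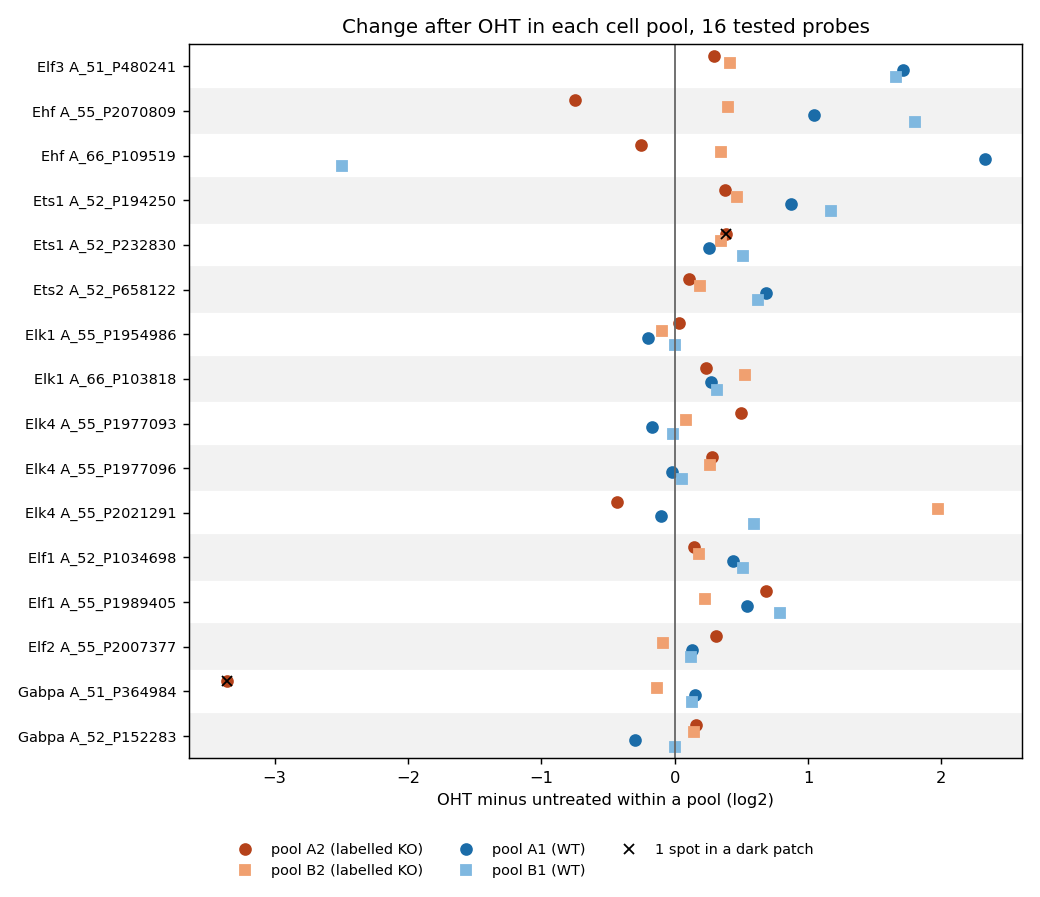
Change with OHT within each cell pool, as the log2 difference between the OHT and the untreated array of the pool, for the 16 tested probes; a cross marks a pair with a spot in a dark patch. Elf3 changed by 0.29 and 0.42 in the pools of the labelled knockout and by 1.71 and 1.66 in those of the wild type.

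The difference of the OHT effects between genotypes had 0 of 16 member probes called by limma, with 0% of all probes, and 2 (Elf3 and Ehf A_55_P2070809) at an unadjusted p under 0.05, against 2.06% of all. The combined pool fit called none of them, again with 0% of all, and 3 at an unadjusted p under 0.05 (Elf3, Ets2 and Ets1 A_52_P194250, each with the larger change in the wild type), against 8.78% of all. The labelled knockout against the wild type called 0 of 16 with OHT and 0 of 16 without, with 0% of all probes in either. At an unadjusted p under 0.05 there were 3 with OHT (Elf3 and Ehf A_55_P2070809 lower, Elk4 A_55_P1977093 higher), against 2.45% of all, and 0 without OHT, against 2.18%. The Ehf probe counted here had entered the tests only through the wild type OHT arrays.

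The rest of the ETS family held calls with OHT only towards lower levels. Of 16 further ETS genes 12 were tested, and in the combined pool fit 4 fell in the labelled knockout and 3 in the wild type, with none higher in either. Over all probes that fit called 2.07% lower in the labelled knockout and 5.76% lower in the wild type. Etv4, an activator of the PEA3 group that ERK signalling induces, changed by -1.82 and -1.81 on its 2 probes in the labelled knockout and by -2.25 and -2.09 in the wild type. Etv1 of the same group changed by -1.57 in the labelled knockout and by -1.60 in the wild type. Etv2, a regulator of blood and endothelial fate, changed by -0.67 and -0.70 in the labelled knockout and by -0.59 and -0.69 in the wild type, and Etv5 by -0.43 in the labelled knockout (adjusted p = 0.0415) and by -0.33 in the wild type (0.0651). The difference of the effects was called for none of these genes by limma in that fit.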

How the data were processed

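Total RNA (100 ng a sample) was labelled with 1 dye, Cy3, and each sample hybridised to its own array, per the labels. The deposited scanner files hold spot intensity read by Agilent Feature Extraction (version 11.5.1.1). Per the file headers, the software subtracted background and removed spatial trends from this intensity, with no scaling across arrays. The deposited files also hold other columns, flags of 0 or 1 (well above background, saturated, non-uniform). A deposited value table was not used. The authors' own normalization and tests are not known here.

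Of 62976 spots, 59305 were no controls. Flagged spots were left out, spots of a probe averaged, and log2 of the processed signal was set against each array's 75th percentile. Probe accessions were named through RefSeq (GRCm38.p6, names and promoters only): 28026 of 55681 probes matched. limma 3.58.1 in R 4.3.3 (lmFit, eBayes) tested 5 comparisons on 4 group means (4 residual degrees of freedom) and 2 pool comparisons in a fit of pool and OHT (2 residual degrees of freedom), two-sided, with Benjamini-Hochberg adjustment over all 32420 tested probes and a threshold of 0.05. The fits were checked on simulated data for their estimates, signs and recovery of large changes. The simulation gave every probe the same noise and had no slide effect or dark patches. It cannot show how many calls on these arrays are false. Tables and plots used Python 3.11.15, pandas 2.3.3, numpy 2.4.6 and matplotlib 3.10.9. A spot lies in a dark patch where the median deviation over 7 by 7 spots is under -1 (log2). Precision is limited by 2 arrays a group.

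Pairing comes from the source names: an OHT array and an untreated array share a pool. Deviations from the group means correlated across probes at 0.369 in the labelled knockout and 0.629 in the wild type, or 0.544 and 0.700 without dark patches, against 0.192 to 0.439 (0.321 to 0.480) across genotypes.

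Named genes were all members with every probe, up to 4 called members of each gene list by size or else the one with the smallest p, and the 5 most and 3 least similar genes of a member that spans at least 1 (log2). Some genes this rule could name are given as counts only, and others were named after their values were seen. The members and lists were chosen with earlier results of these data known. Alternatives tried were quantile normalization, normexp (offset 50), other filters, 1 probe a gene, dark patches left out, a trended and robust variance, slide as a block or slide 1 alone, pools as blocks, and each array or pool left out. Some items are not reported here.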

Additional observations from a re-analysis of the deposited data

Results flagged for a closer look

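Elk4 on A_55_P1977093 changed with OHT in opposite directions in the genotypes, by 0.50 in pool A2 and 0.087 in pool B2 of the labelled knockout and by -0.17 in pool A1 and -0.013 in pool B1 of the wild type. The limma difference of the effects was 0.39 ± 0.35 and was not called (adjusted p = 1.00).

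Gabpa on A_51_P364984 did so too, by -3.36 in A2 and -0.13 in B2 of the labelled knockout and by 0.15 in A1 and 0.13 in B1 of the wild type. The limma difference of the effects was -1.89 ± 1.55 (adjusted p = 1.00). The value in A2 rests on a spot inside a dark patch, and the other Gabpa probe changed by 0.16 and 0.15 in A2 and B2.

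The 3 probes left out of the tests were well above background on an array of the labelled knockout: Elk4 A_55_P2088075 at -4.13 on the OHT array of pool B2, Elf4 A_51_P448856 at -1.03 on the untreated array of pool A2, and Elf4 A_55_P2035282 at -4.26 on the OHT array of pool B2. In the untreated wild type both Elf4 probes were below background on both arrays, and the Elk4 probe was well above background on 1. The Elk4 probe was also well above background on the wild type OHT array of pool A1 (-4.38), so 2 of its 3 detected arrays are wild type.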

How the results depend on the processing

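No result reversed among called values, and of 1162 single-probe values under settings that kept every array or used slide 1 alone, 47 changed sign, none of them called. With an array or pool left out, 85 of 828 changed sign. For OHT in the labelled knockout the count of called member probes stayed at 0 in the other settings and was 0 to 1 with an array left out. It was 1 without the OHT array of pool B2, where Gabpa A_51_P364984, the dark spot, was called at -3.57. The same array and probe gave 1 for the difference of the effects (-3.71) and 1 for the comparison of genotypes with OHT (-3.85), each 0 to 1 over left-out arrays and pools; the difference was also 1 without pool B2 in the combined pool fit (Elf3).

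For OHT in the wild type the count was 0, and 4 in the combined pool fit, which takes pools as replicate blocks, with 1 to 4 over left-out pools: 4 without A2 or B2, and 1 (Elf3) without A1 or B1, where the wild type has 1 pair. The replicate block alone gave 0, as did dark patches left out with the block (tried after seeing the data). The block changed no other call of a member. The comparison of genotypes without OHT stayed at 0 in every setting run. For A2 against B2 the count of 4 became 0 with no filter on dim probes, 2 with 1 probe a gene, and 4 to 6 elsewhere. For A1 against B1 the count of 0 became 1 with normexp (Ehf), 2 with probes well above background on all 8 arrays (Ets1, Elk4), 3 with a trended, robust variance (Ets1, Elk4 and Gabpa), and 5 without dark patches as well (these, Elf1 and the other Gabpa probe), where 26.1% of all probes were called. Normexp moved the median of all probes in that comparison to -0.18, against 0.01. Within slide 1 no OHT effect on a member was called. Low signal limited Ehf, Elf4 and the dim Elk4 probes.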
